A study of Mus musculus with 24 samples.

Results

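The 10 genes described here are the brakes of the cell cycle and the core of the p53 circuit: Cdkn1a, Cdkn1b, Cdkn1c, Cdkn2a, Cdkn2b, Cdkn2c and Cdkn2d, which encode the inhibitors of the cyclin-dependent kinases (CDKs), with Trp53, Mdm2 and Ccng1. They were picked by gene symbol, and all 10 were found among the 49568 genes of both expression tables. Outside the body the set changed in a mixed way. Cdkn1a fell in ductal cells grown as organoids and in cultured mesenchymal cells, while Cdkn2b and Ccng1 rose in both, and Cdkn2a went from almost no reads to a measurable level. Organoids grown with mesenchymal cells in another medium held 2.97-fold more Cdkn1a than organoids grown in expansion medium. Medium and stroma cannot be told apart there.

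CDK inhibitors hold cells before DNA synthesis. The Cip/Kip proteins p21 (Cdkn1a), p27 (Cdkn1b) and p57 (Cdkn1c) bind several cyclin-CDK complexes, whereas the INK4 proteins p16 (Cdkn2a), p15 (Cdkn2b), p18 (Cdkn2c) and p19 (Cdkn2d) bind the cyclin D kinases CDK4 and CDK6. The transcription factor p53, encoded by Trp53, switches on Cdkn1a, Ccng1 and Mdm2 in stressed cells. Mdm2 is the ubiquitin ligase that marks p53 for degradation. In the healthy liver, biliary epithelial and mesenchymal cells rarely divide.

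RNA was measured by Smart-seq2 in 24 samples of mouse liver cells. In the homeostasis experiment, 4 populations were sorted from each of 3 littermates aged 12 weeks, the males A and E and the female F, all heterozygous for B6.129S4-Pdgfratm11(EGFP)Sor/J, a Pdgfra reporter allele (H2B-GFP) on C57BL/6. They were EpCAM+ ductal cells (DCs) and 3 stromal fractions, PDGFRα+SCA1+, PDGFRα+SCA1- and PDGFRα-SCA1+, all of them negative for CD45, CD11b and CD31, with 3 samples each. In the transwell experiment, wild-type C57BL/6 mice of 8 to 12 weeks gave 6 groups of 2 samples. Freshly sorted DCs and SCA1+ mesenchymal cells (SCA1+Msc) were the day 0 groups. The day 15 groups were organoids in expansion medium (EM organoids), organoids from co-culture, SCA1+Msc alone and SCA1+Msc from co-culture. SCA1+Msc were sorted by SCA1 without PDGFRα from 2 littermates and grew for 7 days; then the insert above them received DCs of 2 more animals of the litter. EM organoids grew in EM and co-cultured organoids in MM, the mesenchymal medium, so medium and stroma cannot be told apart in that comparison. The authors report that organoids in MM alone grew minimally and could not be sequenced. The authors call the 2 replicates of a transwell group independent biological replicates, while the labels do not name the animals. The p-values there measure the spread between these samples only.

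The counted reads per library, in units of 1000000, were 19.6 to 25.7 in homeostasis and 19.3 to 28.1 in the transwell experiment. The labelled cell types were checked with marker genes. The summed level of 6 ductal markers in homeostasis was 56240 to 75890 units (the deposited values) in DCs and at most 3784 in any stromal sample, and that of 6 mesenchymal markers was 28550 to 51010 in both PDGFRα+ fractions. The PDGFRα-SCA1+ fraction went against a mesenchymal name: its 6 mesenchymal markers summed to 282 to 466, Pdgfra averaged 0.0328 ± 0.00662 (SD, n = 3), and its 6 endothelial markers summed to 2637 to 2869 against at most 21.8 in the other fractions. It is therefore called by its sorting rule only. It also held the most of 6 haematopoietic markers, 2252 to 5028 against 409 to 3307 elsewhere, with overlap. The 5 hepatocyte markers summed to 5845 to 6977 units in homeostasis DCs and 2126 to 6539 in PDGFRα-SCA1+ cells, against 868 to 2451 in both PDGFRα+ fractions. In the transwell experiment they summed to 17610 to 22120 TPM in SCA1+Msc at day 0, 4236 to 5343 in DCs at day 0 and 25.4 to 1415 in culture, and 6 haematopoietic markers to 3352 to 6602 at day 0 and 24.97 to 612 in culture. The 4 mesothelial markers summed to 3882 to 4504 in co-cultured organoids against at most 326.8 in the other transwell samples, and 4 smooth muscle markers to 1037 to 2370 in PDGFRα+SCA1- cells against at most 167 in the other fractions. The mesothelial sum does not stand for all 4 genes. By limma (adjusted p under 0.05) 1 was higher than in EM organoids and none lower. Against DCs at day 0, 1 was higher and 1 lower. With culture the summed smooth muscle markers went from 518 to 724 TPM in SCA1+Msc at day 0 to 2927 to 3538 in both cultured SCA1+Msc groups, and the summed ductal markers from 1192 to 2539 there to 215 to 554. Single smooth muscle markers went both ways: of the 4, 1 was higher and 1 lower than at day 0 by limma in each cultured group. The part of these cell mixtures in the differences below was not tested. In all these bulk samples, fewer cells of a type and less RNA per cell cannot be told apart.

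Cdkn1a, Mdm2 and Ccng1 are the members best known as p53 targets, and they moved apart in these data, so the sequence just before their start sites is shown. RefSeq (GRCm38.p6) gave 12 start sites for 9 of the 10 members; Cdkn1c had no entry. A p53 decamer, the short repeat unit of p53 response elements, searched on both strands, lay within the 250 bases before 5 of these 12 starts and before 7.13% of 32851 starts of all genes. The decamers are in capitals below, written 5′ to 3′ on the gene's strand.
Cdkn1a, upstream start, chr17:29090729-29090978, plus strand: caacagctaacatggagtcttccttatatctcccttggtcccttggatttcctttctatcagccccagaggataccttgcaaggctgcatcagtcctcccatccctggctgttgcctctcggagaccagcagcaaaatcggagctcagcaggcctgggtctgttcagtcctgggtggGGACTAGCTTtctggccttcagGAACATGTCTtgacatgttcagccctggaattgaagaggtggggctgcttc
Mdm2, chr10:117710759-117711008, minus strand: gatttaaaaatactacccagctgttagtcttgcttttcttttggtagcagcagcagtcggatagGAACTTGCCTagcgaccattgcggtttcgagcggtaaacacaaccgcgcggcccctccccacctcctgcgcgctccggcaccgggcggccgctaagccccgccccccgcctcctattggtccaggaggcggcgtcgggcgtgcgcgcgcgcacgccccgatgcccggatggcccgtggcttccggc
Ccng1, chr11:40755287-40755536, minus strand: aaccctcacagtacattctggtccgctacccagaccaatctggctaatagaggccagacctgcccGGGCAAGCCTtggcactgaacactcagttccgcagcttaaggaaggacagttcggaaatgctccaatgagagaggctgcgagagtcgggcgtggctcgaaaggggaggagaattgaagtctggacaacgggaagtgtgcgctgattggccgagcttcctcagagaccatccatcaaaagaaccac
The decamers of Cdkn1a began at positions −73 and −51 from the start site, that of Mdm2 at −186 and that of Ccng1 at −185. The second start of Cdkn1a, at base 29093769 of chromosome 17, had none in its window. Trp53 and Cdkn2d had a decamer each, at −75 and −102. GGGCGG, also searched on both strands, lay before 6 of the 12 starts, against 32.7% of all. A match is a description of letters, not a site. Cdkn2a has a start for p19Arf and, inside the gene, a start for p16Ink4a, and its level here is a sum over all exons that cannot separate them. The exons of Cdkn1a share 273 bases with AC167363.2 on the other strand, and those of Cdkn1c share 625 bases with Gm44732, so reads there cannot be assigned without strand; the other 8 members overlap no other gene's exons (GENCODE M21).

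The first question was which brakes the DCs and their neighbours carried when freshly sorted. Levels in this experiment are the deposited per-length values, which the authors named TPM, and are called units here. DCs differed from each stromal fraction in a few members. Of the 10 members 9 passed the filter, and with limma (Benjamini-Hochberg adjusted p under 0.05 over all 17028 genes tested) 3 were called in PDGFRα+SCA1+ cells against DCs, where 23.8% of all genes tested were called. In PDGFRα+SCA1- cells against DCs 2 were called (28.8% of all genes), and in PDGFRα-SCA1+ cells against DCs 4 (22.8%). Between PDGFRα+SCA1+ and PDGFRα+SCA1- cells none was called, where 0.587% of all genes, 100 in number, were called and 20 with the mouse as a block; 1985 genes had an unadjusted p under 0.05. PDGFRα-SCA1+ cells differed from PDGFRα+SCA1+ cells in 2 members (18.8% of all genes) and from PDGFRα+SCA1- cells in 4 (21.5%). All 15 called differences went the same way in 3 of 3 mice. These counts of members were not tested against their backgrounds.

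**Figure D1:**
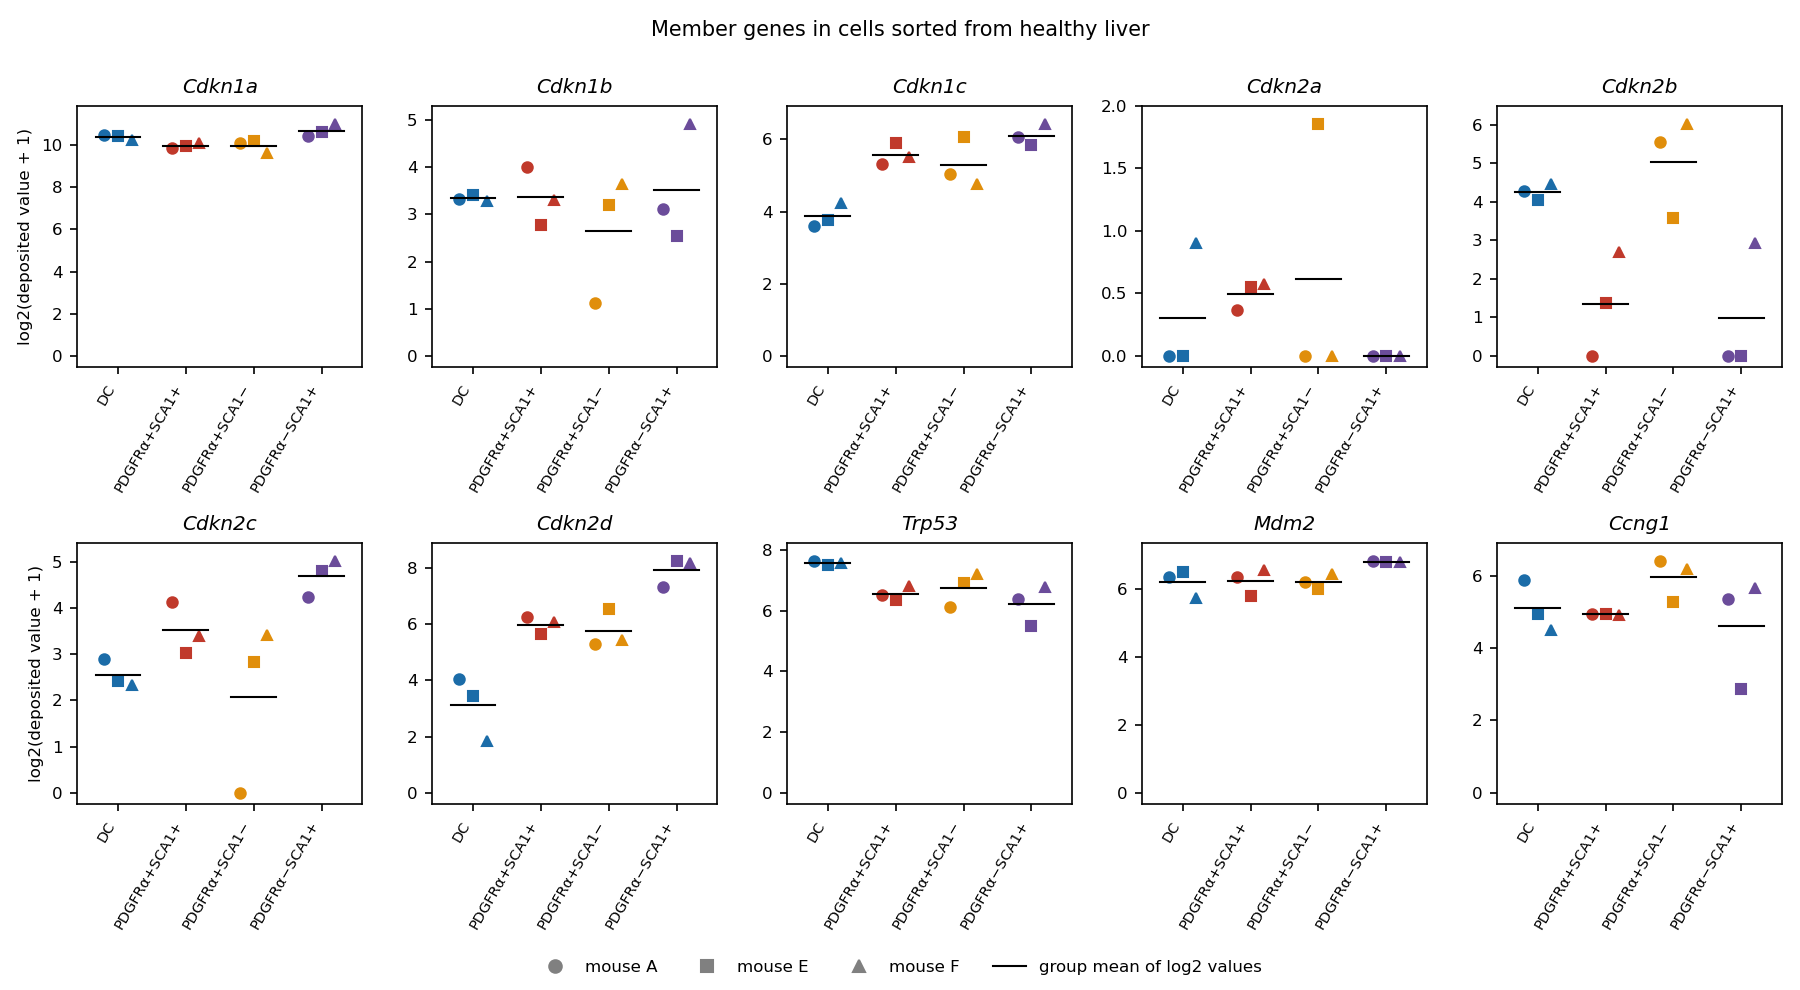
Level of each of the 10 members in the 4 sorted populations of the homeostasis experiment, as log2(deposited value + 1) on the vertical axis, with a point for each of the 3 mice and a line at the mean. Cdkn1a lies far above the other inhibitors in every population, Cdkn2d is lowest in DCs and highest in PDGFRα-SCA1+ cells, and Cdkn2b is lower in both SCA1+ fractions than in DCs and PDGFRα+SCA1- cells.

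Cdkn1a, the gene of p21, was the most abundant inhibitor in all 12 sorted homeostasis samples. In DCs it stood at 1414, 1390 and 1206 units in mice A, E and F. It stood at 1385, 1576 and 2031 in PDGFRα-SCA1+ cells. The PDGFRα+SCA1+ samples gave 945, 1004 and 1080 and the PDGFRα+SCA1- samples 1084, 1158 and 799.7. Each PDGFRα-SCA1+ sample was above every sample of both PDGFRα+ fractions, and in the deposited values the DC samples overlapped with the PDGFRα-SCA1+ samples only. This place of the DCs turned with the table's cycling column totals undone: DCs then held 1257 to 1414 TPM of Cdkn1a, overlapped with both PDGFRα+ fractions, which reached 1320 and 1270, and lay below all PDGFRα-SCA1+ samples, which began at 1628. The Cdkn1a level of PDGFRα-SCA1+ cells exceeded that of PDGFRα+SCA1+ cells by 0.70 on the log2 scale (limma, adjusted p = 0.0259) and that of PDGFRα+SCA1- cells by 0.71 (adjusted p = 0.0221). Both calls held with the totals undone (0.59 and 0.56) and were lost with a variance prior that had no trend (limma, adjusted p = 0.151 and 0.131). The first was also lost without the filter (0.0546) and without PDGFRα+SCA1+ of mouse A or E or PDGFRα-SCA1+ of mouse E or F (adjusted p 0.0549 to 0.0913), and the second with only those 2 groups fitted (0.0958) and without either fraction of mouse F (0.0728 and 0.0802). Against DCs none of the 3 fractions passed the test. The Cdkn1a difference from DCs was −0.40 (95% interval −0.83 to 0.03) in PDGFRα+SCA1+ cells, or −0.19 with the totals undone, and 0.30 (−0.13 to 0.73) in PDGFRα-SCA1+ cells, or 0.40 (limma, adjusted p = 0.0735). All these cells were sorted after enzymatic digestion of the liver. A list of 14 immediate early and dissociation genes summed to 28520 to 36970 units in DCs and 36850 to 45180 in the stromal samples. The part of dissociation in the Cdkn1a levels was not tested.

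Cdkn1c, the gene of p57, was higher in every stromal fraction than in DCs. DCs of mice A, E and F held 11.1, 12.5 and 18.0 units. PDGFRα+SCA1+ cells held 38.6, 58.8 and 45.1 units. PDGFRα+SCA1- cells held 32.0, 65.5 and 26.2, and PDGFRα-SCA1+ cells 65.4, 56.5 and 84.6. No stromal sample overlapped with the DCs, while the 3 stromal fractions overlapped with each other. The Cdkn1c differences from DCs were 1.71 on the log2 scale (SE 0.378, limma adjusted p = 0.00545, 3.27-fold) in PDGFRα+SCA1+ cells, 1.42 (adjusted p = 0.0141) in PDGFRα+SCA1- cells and 2.24 (adjusted p = 0.000878) in PDGFRα-SCA1+ cells. The second was lost without DCs of mouse A or E (limma, adjusted p = 0.0594 and 0.0514) and with only those 2 groups fitted (0.0557). Cdkn1b, the gene of p27, did not separate any populations: the 12 samples ran from 1.16 to 29.1 units, both ends within the stroma, and DCs averaged 9.15 ± 0.418 (SD, n = 3).

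Among the INK4 genes Cdkn2d showed the widest separation. DCs held 15.8, 9.95 and 2.60 units of Cdkn2d in mice A, E and F. PDGFRα+SCA1+ cells held 76.0, 48.9 and 66.8 and PDGFRα+SCA1- cells 38.4, 92.0 and 42.9. PDGFRα-SCA1+ cells held 160.7, 305 and 290.2. The order of the levels was DCs, the 2 PDGFRα+ fractions, which overlapped, and PDGFRα-SCA1+ cells above all. Against DCs Cdkn2d was 7.34-fold higher in PDGFRα+SCA1+ cells (log2 difference 2.88, SE 0.535, limma adjusted p = 0.00176), 6.25-fold higher in PDGFRα+SCA1- cells (adjusted p = 0.00282) and 28.0-fold higher in PDGFRα-SCA1+ cells (4.81, adjusted p = 3.67e-05). Without DCs of mouse F, the lowest sample, the 3 log2 differences were 2.24, 2.01 and 4.17 and stayed called (limma, adjusted p at most 0.0084). PDGFRα-SCA1+ cells were also above PDGFRα+SCA1+ cells (1.93, adjusted p = 0.0246) and PDGFRα+SCA1- cells (2.16, adjusted p = 0.0126). The call against PDGFRα+SCA1+ cells was lost without PDGFRα+SCA1+ of mouse A, E or F and without PDGFRα-SCA1+ of mouse E or F (limma, adjusted p 0.0501 to 0.0905), and also without the filter (0.0511) and with quantile normalization (0.0668).

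Cdkn2b, which TGFβ signalling is known to induce, was scarce in both SCA1+ fractions. DCs held 18.4, 15.6 and 20.99 units in mice A, E and F. PDGFRα+SCA1- cells held 45.7, 10.9 and 63.7. PDGFRα+SCA1+ cells were at 0, 1.61 and 5.44 and PDGFRα-SCA1+ cells at 0, 0 and 6.58. Every SCA1+ stromal sample was below every DC and PDGFRα+SCA1- sample. Cdkn2b fell by 2.91 on the log2 scale in PDGFRα+SCA1+ cells against DCs (limma, adjusted p = 0.0411), and the difference was −3.29 in PDGFRα-SCA1+ cells (adjusted p = 0.0233). Both calls rested on few values: the first was lost without any 1 DC sample or without PDGFRα+SCA1+ of mouse A or E (adjusted p 0.0922 to 0.158), and also with the cycling totals of the table undone (adjusted p = 0.0539), a pseudocount of 0.1 (0.114) or no filter (0.0768), and the second without any 1 DC sample or without PDGFRα-SCA1+ of mouse A or E (0.0587 to 0.086). Without PDGFRα+SCA1+ or PDGFRα-SCA1+ of mouse F the 2 log2 differences were −3.57 and −4.26. PDGFRα-SCA1+ cells were also below PDGFRα+SCA1- cells (−4.07, adjusted p = 0.0083), and without PDGFRα+SCA1- of mouse E or PDGFRα-SCA1+ of mouse F this was −4.81 or −5.04. The difference between the 2 PDGFRα+ fractions was about as large, −3.69 (95% interval −5.73 to −1.65), with an adjusted p of 0.131 (limma). Without PDGFRα+SCA1- of mouse E it was −4.42 and called (limma, adjusted p = 0.0409).

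Cdkn2c, the gene of p18, reached 18.1, 26.9 and 31.6 units in the PDGFRα-SCA1+ samples (in the order A, E, F). It was at 6.51, 4.37 and 4.06 in DCs, 0, 6.16 and 9.66 in PDGFRα+SCA1- cells and 16.5, 7.15 and 9.63 in PDGFRα+SCA1+ cells. The PDGFRα-SCA1+ samples were above all others without overlap, and DCs overlapped with PDGFRα+SCA1- cells. Against PDGFRα+SCA1- cells the log2 difference was 2.61 (limma, adjusted p = 0.0294). It was 1.57 without PDGFRα+SCA1- of mouse A, which held no read of the gene, and 3.27 without that fraction of mouse F, and the call was lost without PDGFRα-SCA1+ of mouse E or F (limma, adjusted p = 0.0745 and 0.0871), and also with a pseudocount of 0.1, no filter or only those 2 groups fitted (0.0555 to 0.113). Against DCs it was 2.14 (95% interval 0.47 to 3.81, adjusted p = 0.0657), called with only those 2 groups fitted (0.00636).

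Cdkn2a was close to absent in homeostasis. The reads recovered from the table were 0, 0 and 6 in DCs, 0, 18 and 0 in PDGFRα+SCA1- cells, 2, 3 and 4 in PDGFRα+SCA1+ cells and 0 in all PDGFRα-SCA1+ samples. The highest value was 2.61 units, in PDGFRα+SCA1- of mouse E. The gene did not pass the filter and was not tested.

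Trp53 was highest in DCs. They held 198, 180.4 and 190.0 units in mice A, E and F. PDGFRα-SCA1+ cells held 82.7, 44.4 and 109.9, PDGFRα+SCA1+ cells 89.9, 81.4 and 112, and PDGFRα+SCA1- cells 67.9, 120 and 147. All stromal samples were below all DC samples, and the 3 stromal fractions overlapped. Trp53 fell by 1.34 on the log2 scale in PDGFRα-SCA1+ cells against DCs (limma, adjusted p = 0.0155), a call that was lost without DCs of mouse A (0.0532) or PDGFRα-SCA1+ of mouse E (0.0604). In PDGFRα+SCA1+ cells the difference was −1.01 (95% interval −1.78 to −0.23, adjusted p = 0.0590), called with a minimum value of 5 (0.0499) and with only those 2 groups fitted (0.00306). In PDGFRα+SCA1- cells it was −0.83 (−1.60 to −0.05, adjusted p = 0.102).

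Mdm2 and Ccng1 did not pass the test in any of the 6 homeostasis comparisons. Mdm2 averaged 73.9 ± 19.5 units in DCs, 73.4 ± 11.5 in PDGFRα+SCA1- cells, 76.6 ± 20.1 in PDGFRα+SCA1+ cells and 110.4 ± 1.57 in PDGFRα-SCA1+ cells (SD, n = 3 each). In the deposited values the PDGFRα-SCA1+ samples, at 109 to 112, were above the other 9, which ran from 51.9 to 94.0; with the totals undone they were at 95.8 to 101 TPM, and PDGFRα+SCA1+ of mouse A, at 97.7, overlapped with them. The log2 difference from DCs was 0.61 (95% interval −0.01 to 1.23, limma adjusted p = 0.159), or 0.70 with the totals undone (0.0732). Ccng1, which encodes cyclin G1, averaged 36.6 ± 18.9 in DCs, 65.0 ± 23.9 in PDGFRα+SCA1- cells, 29.9 ± 0.332 in PDGFRα+SCA1+ cells and 31.8 ± 22.7 in PDGFRα-SCA1+ cells, and only the ranges of the 2 PDGFRα+ fractions did not overlap.

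The second question was how the same brakes stood in the day 15 cultures. SCA1+Msc had grown for 7 days before DCs were added, so the time in culture was not equal between the cell types. Levels in the transwell experiment are TPM made from the deposited RPKM, and each pair of values gives replicates 1 and 2. All 10 members passed the filter among 18136 genes tested. Against DCs at day 0, 7 members were called in EM organoids, where 44.4% of all genes tested were called, and 7 in co-cultured organoids (42.3%). Co-cultured organoids differed from EM organoids in 2 (12.9%). SCA1+Msc cultured alone differed from SCA1+Msc at day 0 in 9 (44.8%), and co-cultured SCA1+Msc in 6 (43.3%). Cultured SCA1+Msc with and without DCs differed in none of the members, with 0.127% of all genes, 23 in number, called by limma and 1263 at an unadjusted p under 0.05. At day 0, SCA1+Msc differed from DCs in 5 members (46.1%). These comparisons share samples: both organoid groups are set against the same DCs and both cultured mesenchymal groups against the same SCA1+Msc. The share of members called was above the background in the 4 comparisons with day 0 cells, a difference that was not tested.

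**Figure D2:**
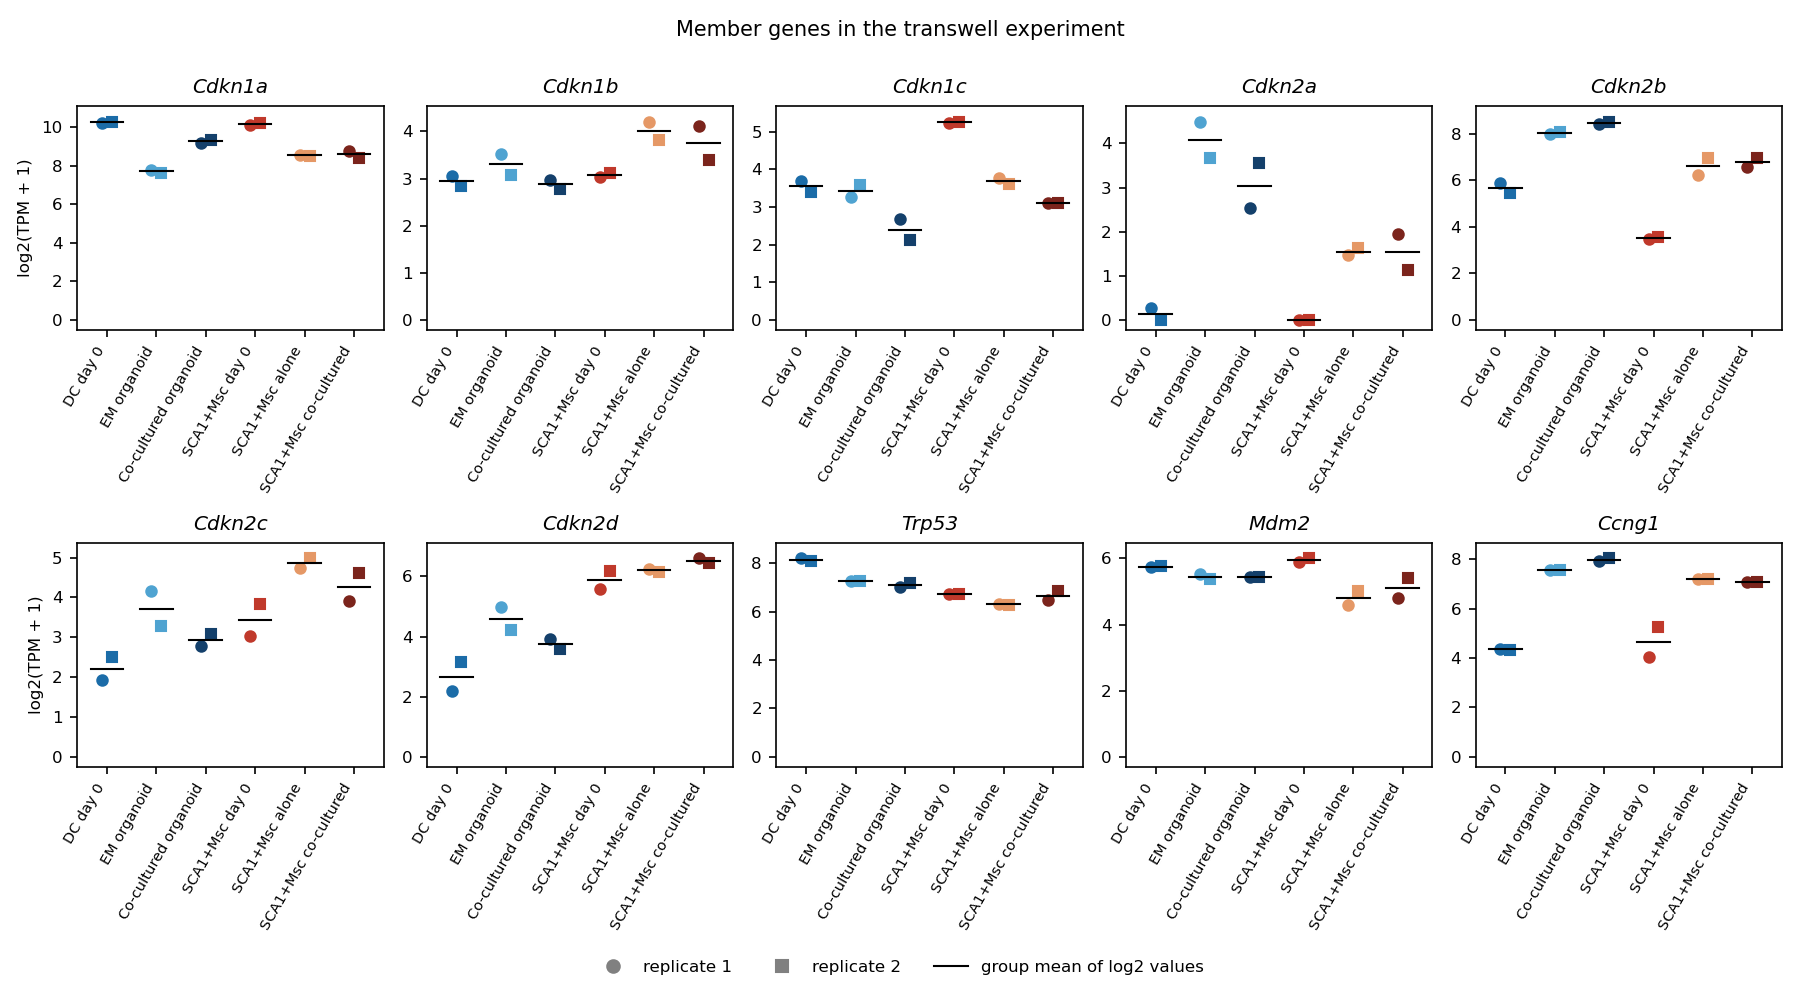
Level of each of the 10 members in the 6 groups of the transwell experiment, as log2(TPM + 1) on the vertical axis, with a point for each of the 2 replicates and a line at the mean. Cdkn1a is lower in all 4 cultured groups than at day 0 and lowest in EM organoids, while Cdkn2a, Cdkn2b and Ccng1 are higher in all 4 cultured groups.

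Cdkn1a fell in culture in both cell types and by the most in EM organoids. DCs at day 0 held 1219 and 1261 TPM and SCA1+Msc at day 0 1106 and 1182. EM organoids held 217.5 and 201 TPM and co-cultured organoids 593 and 654. SCA1+Msc held 384 and 369 alone and 443 and 346 in co-culture. No cultured sample reached a day 0 sample, co-cultured organoids were above all other cultured samples, EM organoids were below them, and the 2 cultured mesenchymal groups overlapped. Cdkn1a was 5.91-fold lower in EM organoids than in DCs at day 0 (log2 difference −2.56, limma adjusted p = 4.48e-07) and 1.99-fold lower in co-cultured organoids (−0.99, adjusted p = 0.000115). Co-cultured organoids were 2.97-fold above EM organoids (log2 difference 1.57, limma adjusted p = 3.68e-05). In SCA1+Msc it fell by 1.602 on the log2 scale alone (limma, adjusted p = 6.32e-06) and by 1.54 in co-culture (adjusted p = 8.41e-06), and between these groups the difference was 0.06 (95% interval −0.20 to 0.32). Between the cell types at day 0 the difference was −0.12 (95% interval −0.38 to 0.14, adjusted p = 0.455); with quantile normalization it was −0.42 and called (limma, adjusted p = 0.0162).

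The summed level of 14 immediate early and dissociation genes, which cells switch on within minutes of stress, was also lower in culture. It was 20410 to 21810 TPM in DCs at day 0, 37250 to 38080 in SCA1+Msc at day 0, and 974 to 2837 in all cultured samples. Among cultured samples it was 2797 to 2837 in co-cultured organoids against 1765 to 1880 in EM organoids. Its part in the Cdkn1a differences was not tested. Between co-cultured and EM organoids 4 of the 14 genes rose and 2 fell, with a median difference of 0.21 on the log2 scale against −0.13 over all genes; Atf3 rose by 2.58 and Fos by 2.20, and Egr1 fell by 1.28. Against DCs at day 0, 13 of the 14 fell in each organoid group (medians −3.29 and −2.72), and all 14 fell in each cultured SCA1+Msc group (−5.59 and −5.14). Over all genes tested, 44.4% and 42.3% were called in EM and co-cultured organoids against day 0. The share was 44.8% and 43.3% in SCA1+Msc alone and in co-culture, and 12.9% between the organoid groups.

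Cdkn1c, the second Cip/Kip gene with called differences, was at 12.0 and 9.56 TPM in DCs at day 0, 8.52 and 11.1 in EM organoids and 5.43 and 3.32 in co-cultured organoids. SCA1+Msc held 36.7 and 37.5 at day 0, 12.7 and 11.1 alone and 7.67 and 7.54 in co-culture. SCA1+Msc at day 0 were above all other samples and co-cultured organoids below all others, while DCs at day 0 overlapped with EM organoids and with SCA1+Msc alone. Cdkn1c was higher in SCA1+Msc than in DCs at day 0 (1.70 on the log2 scale, limma adjusted p = 0.000442). It fell in SCA1+Msc cultured alone by 1.56 (limma, adjusted p = 0.000865) and co-cultured by 2.15 (adjusted p = 0.000135); between these the difference was −0.58 (95% interval −1.16 to −0.01, adjusted p = 0.706). In co-cultured organoids Cdkn1c was lower than in DCs at day 0 (−1.15, limma adjusted p = 0.00511) and than in EM organoids (−1.02, adjusted p = 0.0278). The latter call was lost with quantile normalization (−0.70, adjusted p = 0.128), and without EM organoid replicate 1 or 2 or co-cultured organoid replicate 2 (0.0614, 0.175 and 0.170), and with only those 2 groups fitted (0.0699).

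Cdkn1b was at 5.89 to 10.6 TPM in the 8 ductal and day 0 mesenchymal samples and at 9.59 to 17.5 in the 4 cultured mesenchymal samples. Its only call was in SCA1+Msc alone against day 0 (log2 difference 0.93, limma adjusted p = 0.0303), and this was lost without SCA1+Msc day 0 replicate 1 or 2 or SCA1+Msc alone replicate 1 (adjusted p 0.0634 to 0.166) and with only those 2 groups fitted (0.0681).

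Cdkn2b was the INK4 gene with the highest level in every organoid sample. In replicate 1 of both cultured SCA1+Msc groups Cdkn2d was slightly higher, at 75.8 against 73.9 TPM alone and 96.02 against 95.5 in co-culture. In replicate 2 Cdkn2b was higher. DCs held 57.8 and 42.3 TPM at day 0, EM organoids 253 and 268, and co-cultured organoids 341.5 and 368. SCA1+Msc held 10.03 and 10.9 at day 0, 73.9 and 125 alone and 95.5 and 124 in co-culture. The order was SCA1+Msc at day 0, DCs at day 0, the overlapping cultured mesenchymal groups, EM organoids and co-cultured organoids. Cdkn2b rose 5.18-fold in EM organoids (log2 difference 2.37, limma adjusted p = 4.72e-05), 7.04-fold in co-cultured organoids (adjusted p = 1.78e-05), 8.48-fold in SCA1+Msc alone (adjusted p = 1.04e-05) and by 3.26 on the log2 scale in SCA1+Msc in co-culture (adjusted p = 8.12e-06). At day 0 it was lower in SCA1+Msc than in DCs (−2.14, limma adjusted p = 7.77e-05). Between the organoid groups the difference was 0.44 (95% interval −0.10 to 0.99, limma adjusted p = 0.301), called when only those 2 groups were fitted (0.0182).

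Cdkn2a appeared in culture. DCs at day 0 gave 2 and 0 reads and SCA1+Msc at day 0 none in either replicate. EM organoids gave 180 and 88 reads (21.5 and 11.8 TPM) and co-cultured organoids 50 and 95 (4.77 and 10.8 TPM). SCA1+Msc gave 16 and 18 reads alone (1.78 and 2.09 TPM) and 21 and 10 in co-culture (2.83 and 1.18 TPM). Every cultured sample was above every day 0 sample, and the organoid samples were above the cultured mesenchymal ones. Against DCs at day 0 the ratio of the pooled levels was 147 in EM organoids (exact 95% counting interval 40.4 to 1222) and 65.4 in co-cultured organoids (17.8 to 545), which cover counting error only. Set against a floor of 3 reads over both day 0 libraries, the pooled Cdkn2a level was 9.16-fold higher in SCA1+Msc alone and 9.27-fold higher in co-culture. The floor covers the day 0 side only, and the counting error of the 34 and 31 cultured reads is not included. All 4 differences passed limma's test, with adjusted p of 8.83e-05, 0.000628, 0.0182 and 0.0197 in this order. The last 2 calls were lost on the RPKM as deposited (adjusted p = 0.0969 and 0.0937). The call for SCA1+Msc alone was also lost without any 1 of its 4 libraries (0.0524 to 0.0784), and that in co-culture without either day 0 replicate or co-cultured replicate 1 (0.0557 to 0.134). Between the organoid groups the log2 difference was −1.04 (95% interval −2.04 to −0.04, limma adjusted p = 0.176).

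Cdkn2c and Cdkn2d rose in EM organoids. Cdkn2c went from 2.77 and 4.64 TPM in DCs at day 0 to 16.8 and 8.69 in EM organoids, with 5.87 and 7.51 in co-cultured organoids. In SCA1+Msc it was at 7.20 and 13.3 at day 0, 25.7 and 30.5 alone and 14.1 and 23.4 in co-culture. Both EM organoid samples were above the co-cultured organoids and DCs, and SCA1+Msc alone were above all other samples. The called log2 differences of Cdkn2c were 1.51 in EM organoids against DCs (limma, adjusted p = 0.0126), 1.42 in SCA1+Msc alone against day 0 (0.0167) and 1.23 in SCA1+Msc against DCs at day 0 (0.0304). All of these were lost without 1 library. For EM organoids these were DC day 0 replicate 1 and EM organoid replicate 1 (adjusted p = 0.0886 and 0.104). For SCA1+Msc alone they were SCA1+Msc day 0 replicate 1 and SCA1+Msc alone replicate 2 (0.0986 and 0.0853), and for SCA1+Msc against DCs they were DC day 0 replicate 1 and SCA1+Msc day 0 replicate 2 (0.172 and 0.169). The last call was also lost without the filter (0.0528) and with only those 2 groups fitted (0.0862).

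Cdkn2d was at 3.54 and 7.82 TPM in DCs at day 0, 30.5 and 17.7 in EM organoids and 14.3 and 10.9 in co-cultured organoids. SCA1+Msc held 47.5 and 71.1 at day 0, 75.8 and 70.8 alone and 96.02 and 86.2 in co-culture. All mesenchymal samples were above all ductal ones, and within the ductal samples the order was DCs, co-cultured organoids and EM organoids without overlap. SCA1+Msc at day 0 exceeded DCs at day 0 by 3.22 on the log2 scale (limma, adjusted p = 6.07e-05), and EM organoids exceeded them by 1.94 (0.00158). Co-cultured organoids exceeded them by 1.09 (limma, adjusted p = 0.0314), or by 0.61 without DC day 0 replicate 1 (0.225), and this call was also lost without either co-cultured organoid replicate (0.158 and 0.0579), without the filter (0.0569), with quantile normalization (0.0714) and with only those 2 groups fitted (0.0599). In cultured SCA1+Msc Cdkn2d did not pass the test against day 0. The log2 difference was 0.33 alone (95% interval −0.46 to 1.12) and 0.64 in co-culture (−0.15 to 1.43).

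Trp53 and Ccng1 moved in opposite directions in organoids. Trp53 was at 292 and 272 TPM in DCs at day 0, 152 and 151 in EM organoids and 129 and 145 in co-cultured organoids. In SCA1+Msc it was at 106 and 106 at day 0, 79.2 and 77.4 alone and 87.3 and 115 in co-culture. DCs at day 0 were above all other samples and SCA1+Msc alone below all others. Trp53 fell by 0.89 on the log2 scale in EM organoids (limma, adjusted p = 0.000518) and by 1.04 in co-cultured organoids (0.00022), and it was lower in SCA1+Msc than in DCs at day 0 (−1.40, 2.56e-05). It fell by 0.43 in SCA1+Msc alone (limma, adjusted p = 0.0254), a call that was lost without any 1 of the 4 libraries (0.0614 to 0.0946), without a trend in the variance prior (0.0875) and with only those 2 groups fitted (0.0552). In co-cultured SCA1+Msc the difference from day 0 was −0.08 (95% interval −0.38 to 0.22), and that from SCA1+Msc alone was 0.35 (0.05 to 0.65, limma adjusted p = 0.635).

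Ccng1, a p53 target that encodes cyclin G1, rose in all 4 cultured groups. It was at 19.7 and 19.3 TPM in DCs at day 0, 189 and 190 in EM organoids and 245 and 262.5 in co-cultured organoids. In SCA1+Msc it was at 15.4 and 36.9 at day 0, 148 and 146 alone and 135 and 137 in co-culture. Every cultured sample was above every day 0 sample, organoids were above cultured SCA1+Msc, and both day 0 groups overlapped. The rise was 9.29-fold in EM organoids (log2 difference 3.21, SE 0.297, limma adjusted p = 2.56e-05), 12.5-fold in co-cultured organoids (adjusted p = 1.33e-05) and 5.95-fold in SCA1+Msc alone (2.57 on the log2 scale, adjusted p = 0.000111). In co-cultured SCA1+Msc it was 2.46 on the log2 scale (limma, adjusted p = 0.000152). Without SCA1+Msc day 0 replicate 1 or 2 the 2 mesenchymal rises were 1.97 and 1.85 or 3.18 and 3.07, all of them called. Between the organoid groups the difference was 0.42 (95% interval −0.25 to 1.09, limma adjusted p = 0.444), called when only those 2 groups were fitted (0.0219).

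Mdm2 fell in cultured SCA1+Msc. It was at 58.6 and 63.0 TPM at day 0, 23.2 and 31.4 alone and 27.1 and 41.3 in co-culture. In ductal samples it was at 52.9 and 53.1 at day 0, 44.8 and 40.4 in EM organoids and 42.7 and 42.2 in co-cultured organoids. The 4 cultured mesenchymal samples were below both day 0 groups, and the 2 organoid groups overlapped. Mdm2 fell by 1.14 on the log2 scale in SCA1+Msc alone (limma, adjusted p = 0.00181) and by 0.84 in co-culture (0.00971); the latter call was lost without SCA1+Msc co-cultured replicate 1 (−0.55, adjusted p = 0.0748) and with only those 2 groups fitted (0.0542). In both organoid groups the difference from DCs was −0.31 (95% intervals −0.78 to 0.16 in EM organoids and −0.79 to 0.16 in co-cultured organoids). With quantile normalization that of EM organoids was −0.63 and called (limma, adjusted p = 0.0353).

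**Figure D3:**
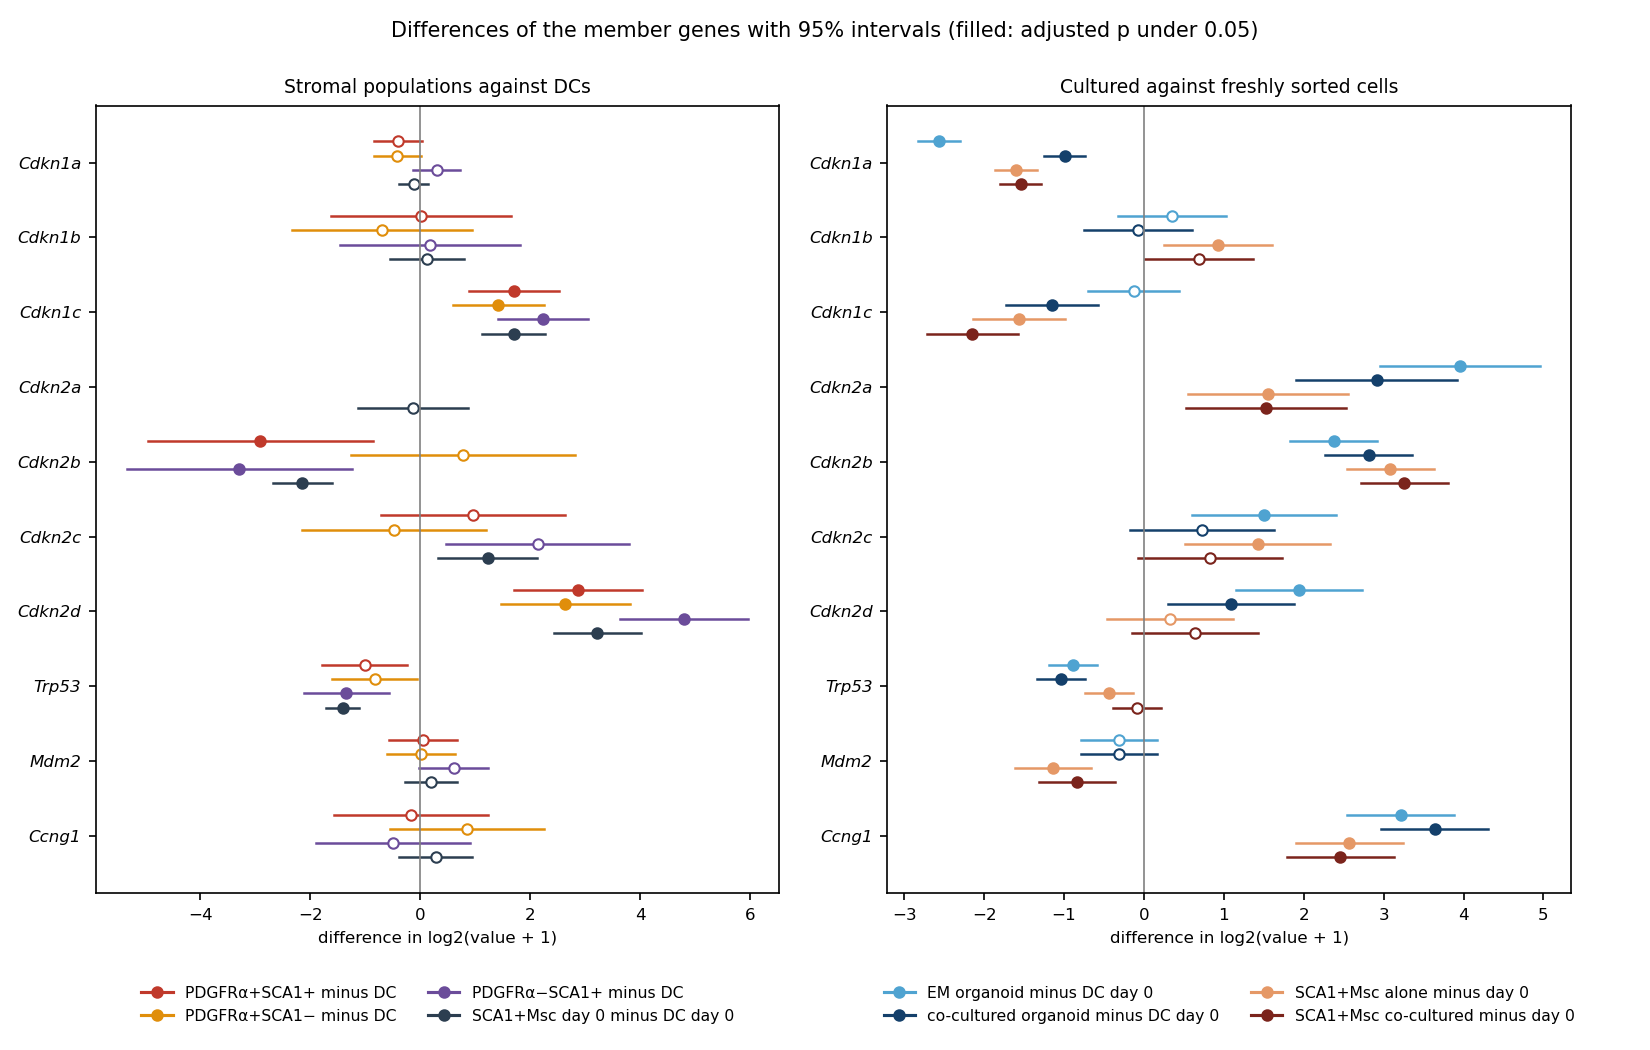
Differences in log2(value + 1) of the members on the horizontal axis, for stromal fractions minus DCs (left) and cultured minus day 0 cells (right), with 95% intervals from limma; filled points passed an adjusted p of 0.05 over all genes tested. Cdkn1c and Cdkn2d lie above 0 in all 4 stromal comparisons on the left, and on the right Cdkn1a lies below 0 and Cdkn2a, Cdkn2b and Ccng1 above 0 in all 4 comparisons.

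The change from day 0 to the co-cultured groups was compared between ductal cells and SCA1+Msc, as the difference of the 2 changes. Each change holds culture itself, medium and time in culture as well as co-culture, and these cannot be told apart here. The difference was called for 2 members, where 28.3% of all genes tested were called. For Trp53 it was −0.96 on the log2 scale (SE 0.190, limma adjusted p = 0.00511): Trp53 fell by 1.04 in ductal cells and differed by −0.08 in SCA1+Msc. For Cdkn1a it was 0.55 (SE 0.163, limma adjusted p = 0.0319): Cdkn1a fell by 0.99 in ductal cells and by 1.54 in SCA1+Msc. In the groups without co-culture, Cdkn1a and Trp53 each fell by more in EM organoids than in SCA1+Msc alone, which was not tested. The Cdkn1a call was lost with quantile normalization (0.31, adjusted p = 0.207), without a trend in the variance prior (0.145), without the filter (0.0604), with only the 4 groups compared fitted (0.0639), and without DC day 0 replicate 1 or 2 or replicate 2 of co-cultured organoids, SCA1+Msc day 0 or co-cultured SCA1+Msc (0.0672 to 0.102). For Ccng1 the difference was 1.18 (95% interval 0.23 to 2.12, limma adjusted p = 0.0642). It was called without SCA1+Msc day 0 replicate 1 (1.79, adjusted p = 9.34e-05) or replicate 2 (0.57, 0.0179), the samples at 15.4 and 36.9 TPM, and on the RPKM as deposited (1.32, 0.0236).

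The make-up of the inhibitor pool was compared within samples, as the share of each gene in the summed TPM of the 7 inhibitors (for homeostasis, with the cycling totals undone). Cdkn1a made up 82.7% to 96.6% of the sum in the 16 freshly sorted samples of both experiments and 38.2% to 65.6% in the 8 cultured ones, without overlap. In EM organoids Cdkn2b, at 45.3% to 51.0%, was above Cdkn1a, at 38.2% to 39.0%. In co-cultured organoids Cdkn1a, at 61.0% to 61.7%, was above Cdkn2b, at 34.7% to 35.1%. Cdkn2b made up 12.5% to 20.1% in SCA1+Msc alone and 14.1% to 20.7% in co-culture, and Cdkn2d 11.4% to 12.8% and 14.2% to 14.4%. Cdkn2d also took 8.86% to 13.2% in PDGFRα-SCA1+ cells. The summed level was 1303 to 1332 TPM in DCs at day 0, 526 to 558 in EM organoids and 972 to 1060 in co-cultured organoids. It was 1215 to 1322 in SCA1+Msc at day 0 and 591 to 676 in cultured SCA1+Msc. In homeostasis it was 1917 to 2375 TPM in PDGFRα-SCA1+ cells and 1122 to 1468 in the other populations, without overlap. These shares are a description, with no test.

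**Figure D4:**
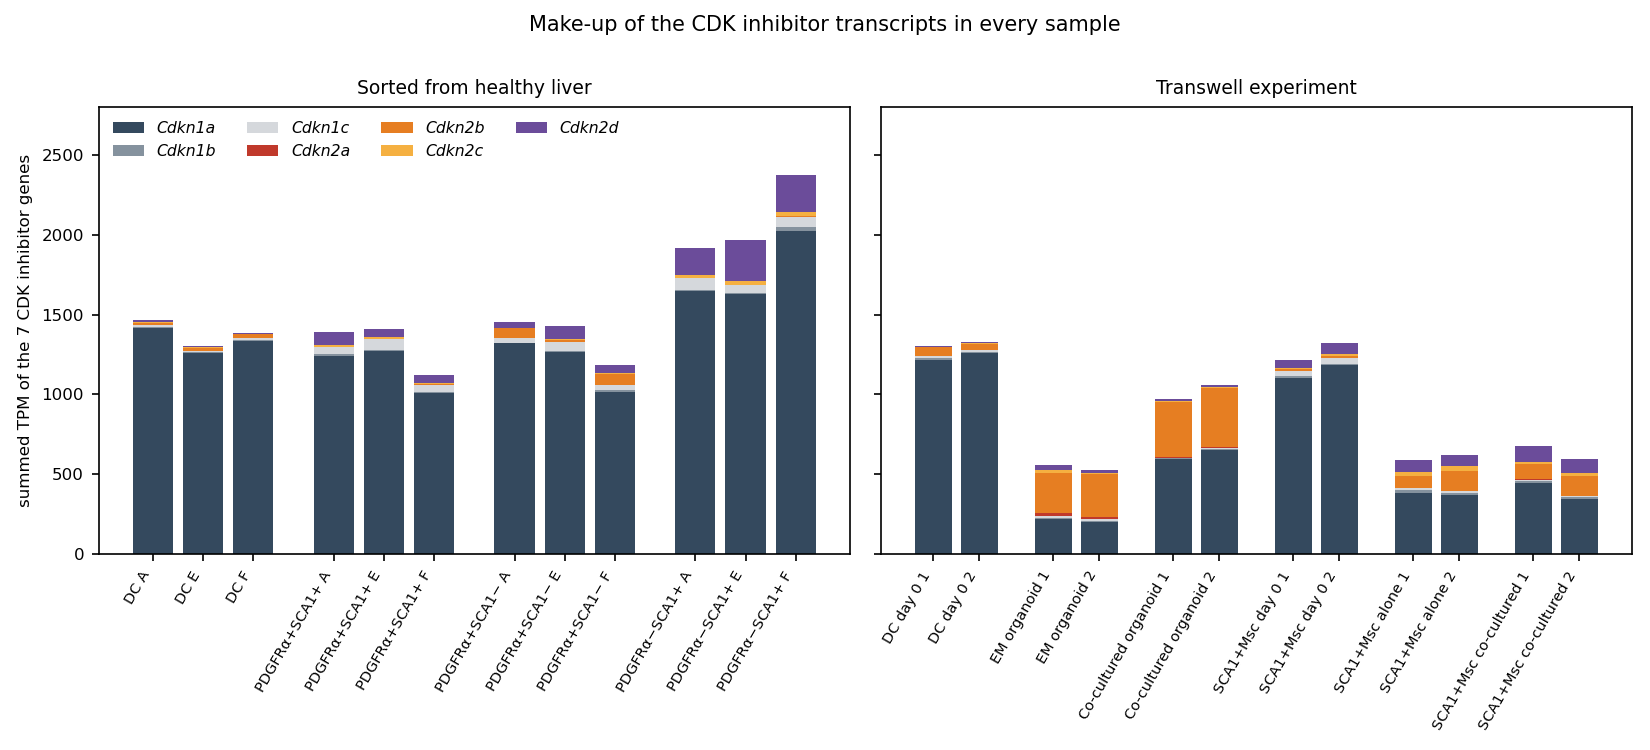
Stacked TPM of the 7 CDK inhibitor genes (vertical axis, from 0) in each of the 24 samples, with a bar per sample and a colour per gene. Cdkn1a fills 82.7% to 96.6% of each sorted sample's bar, while in organoids Cdkn2b takes most of the rest and the bars of all cultured samples are shorter than those of their day 0 cells.

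The machinery that these brakes act on was followed with a list of 17 G1 kinases, cyclins, pocket proteins and E2Fs. Against DCs at day 0, 7 rose and 1 fell in EM organoids (median log2 difference 0.52 against 0.12 over all genes), so 8 of the 17 were called where 44.4% of all genes were. In co-cultured organoids 8 rose and 2 fell (0.61 against 0.00), 10 of the 17 against 42.3% of all genes. In SCA1+Msc 9 rose and 1 fell alone (0.81 against 0.18), 10 of the 17 against 44.8%, and 10 rose and 1 fell in co-culture (0.81 against 0.17), 11 of the 17 against 43.3%. Ccna2, the gene of cyclin A2, rose by 4.38 in EM and 4.41 in co-cultured organoids, and E2f1 by 2.49 and 2.48. Co-cultured and EM organoids differed in 4 of these genes. Ccnd1, the gene of cyclin D1, was higher in co-culture by 1.36 (limma, adjusted p = 0.000189), while Ccnd2 (−1.58), Ccnd3 (−0.67) and Cdk4 (−0.59) were lower. At day 0, SCA1+Msc were higher than DCs in 4 and lower in 4 (median −0.02 against −0.07), and no member of the list was called between cultured SCA1+Msc with and without DCs. The share of all genes called was 12.9% between the organoid groups, 46.1% at day 0 and 0.127% between the cultured SCA1+Msc groups.

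In homeostasis the same list had 16 genes tested. Against DCs, PDGFRα+SCA1+ cells had 1 higher and 3 lower, PDGFRα+SCA1- cells 2 and 4, and PDGFRα-SCA1+ cells 1 and 3. In this order 23.8%, 28.8% and 22.8% of all genes tested were called. Ccnd1 was lower in each (−4.87, −5.11 and −3.03) and Ccnd3 higher in each (1.52, 1.76 and 1.68). PDGFRα-SCA1+ cells had 2 higher than PDGFRα+SCA1+ cells and 3 higher and 1 lower than PDGFRα+SCA1- cells, and the 2 PDGFRα+ fractions differed in none. Of all genes tested, 18.8%, 21.5% and 0.587% were called in these comparisons, in this order.

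Most proliferation genes rose in all cultured groups. Of 18, 15 rose in EM organoids (median 2.25), 14 rose and 1 fell in co-cultured organoids (2.25), 13 rose and 1 fell in SCA1+Msc alone (1.76) and 13 rose and 1 fell in co-culture (2.15). The share of all genes called was 44.4%, 42.3%, 44.8% and 43.3%, in this order. Plk1 rose by 5.45 in EM and 5.70 in co-cultured organoids, and Cdk1, the mitotic kinase, by 4.35 and 4.41. None of the 18 was called between co-cultured and EM organoids (median −0.09 against −0.13 over all genes), nor between the cultured SCA1+Msc groups (0.45 against 0.00). At day 0, 2 were higher and 4 lower in SCA1+Msc than in DCs. Of all genes tested, 12.9% were called between the organoid groups, 0.127% between the cultured SCA1+Msc groups and 46.1% at day 0. In homeostasis 13 were tested. PDGFRα-SCA1+ cells held more Mki67 than DCs (2.11, limma adjusted p = 0.00654), than PDGFRα+SCA1+ cells (2.77) and than PDGFRα+SCA1- cells (2.92), with 2, 3 and 4 genes of the list higher and none lower. In both PDGFRα+ fractions 2 were lower than in DCs, Mcm6 and Mcm7. For PDGFRα-SCA1+ cells 22.8%, 18.8% and 21.5% of all genes tested were called in the 3 comparisons above. PDGFRα+SCA1+ and PDGFRα+SCA1- cells had 23.8% and 28.8% called against DCs.

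**Figure D5:**
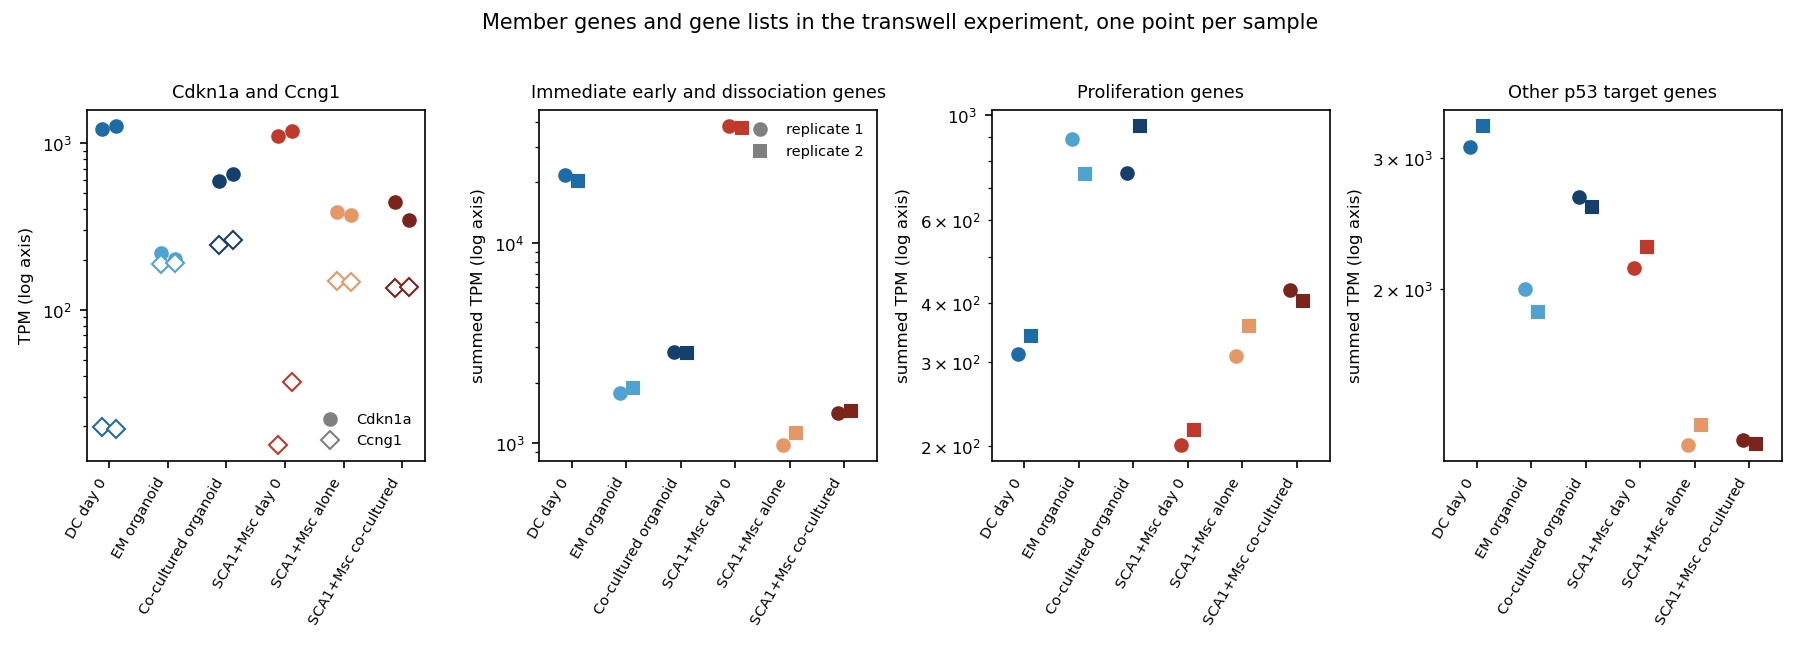
Levels of Cdkn1a and Ccng1 in TPM beside the summed TPM of the immediate early, proliferation and other p53 target lists in the 6 transwell groups, on log axes, with a point for each of the 2 replicates. Immediate early genes sum to 974 to 2837 in every cultured sample and to at least 20410 at day 0, and proliferation genes are higher in organoids than in DCs at day 0 and higher in cultured SCA1+Msc than in SCA1+Msc at day 0.

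The other p53 targets moved in both directions. Of 29 tested, 10 rose and 9 fell in EM organoids against DCs at day 0 (median −0.11 against 0.12 over all genes), 9 rose and 8 fell in co-cultured organoids (−0.20), 11 rose and 10 fell in SCA1+Msc alone (0.65) and 12 rose and 11 fell in co-culture (0.68). Calls over all genes tested were at 44.4%, 42.3%, 44.8% and 43.3%, in this order. In EM and co-cultured organoids Phlda3 rose by 3.99 and 4.23, Gtse1 by 4.33 and 4.32 and Eda2r, a death receptor gene, by 3.30 and 3.24, while Gdf15, a stress cytokine, fell by 4.05 and 4.23. Gtse1 also rose in SCA1+Msc alone (3.94) and in co-culture (4.13), and Gdf15 (−4.73 and −4.32), Perp (−4.23 and −4.94) and Plk3 (−3.61 and −3.48) fell. Co-cultured organoids were above EM organoids in Sfn (2.73, limma adjusted p = 0.00211), Pmaip1 (1.54) and Plk2 (0.70) and below them in Sesn2 (−0.66). At day 0, 5 were higher and 13 lower in SCA1+Msc than in DCs (median −0.59), Sfn by −4.73 and Pmaip1 by −3.75 among the lower and Fas by 3.63 among the higher. None was called between the cultured SCA1+Msc groups, where 0.127% of all genes tested were called. The share of all genes was 46.1% between the cell types at day 0 and 12.9% between the organoid groups.

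In homeostasis 28 of these targets were tested. Against DCs 4 were higher and 9 lower in PDGFRα+SCA1+ cells (median −0.75 against −0.28 over all genes), 4 higher and 11 lower in PDGFRα+SCA1- cells (−1.12 against −0.47) and 6 higher and 7 lower in PDGFRα-SCA1+ cells (0.35 against −0.04). Perp, which epithelial cells also use in desmosomes, and Sfn, which encodes an epithelial 14-3-3 protein, were lower in all 3 fractions, Perp by −8.14, −6.20 and −5.01 and Sfn by −7.77, −6.82 and −4.93. PDGFRα-SCA1+ cells were higher than PDGFRα+SCA1+ cells in 9 and lower in 2 (1.04 against 0.25), and higher than PDGFRα+SCA1- cells in 7 and lower in 1 (0.94 against 0.41). The 2 PDGFRα+ fractions differed in none. The immediate early genes were higher than in DCs in 8 and lower in 2 of 14 in each PDGFRα+ fraction, and higher in 4 and lower in none in PDGFRα-SCA1+ cells; PDGFRα-SCA1+ cells were higher in 4 and lower in 3 than PDGFRα+SCA1+ cells and higher in 2 and lower in 3 than PDGFRα+SCA1- cells.

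Of 11 p53 partners and regulators 9 were tested, and none was called in homeostasis. Between 0.587% and 28.8% of all genes tested were called there, by comparison. In EM organoids Chek2, a checkpoint kinase gene, rose by 2.90 (limma, adjusted p = 0.00304) and Usp7, whose product removes ubiquitin from Mdm2 and p53, fell by 0.87. In co-cultured organoids Chek2 rose by 3.01, Usp7 fell by 1.06 and Trp53bp1 fell by 0.73. In SCA1+Msc, Chek2 rose and Usp7 and Ep300 fell both alone (2.10, −0.75 and −0.95) and in co-culture (2.11, −0.69 and −0.89), and Mdm4, the partner of Mdm2, rose by 0.52 alone. Among all genes tested 44.4% and 42.3% were called in EM and co-cultured organoids, and 44.8% and 43.3% in SCA1+Msc alone and in co-culture. At day 0 Trp53bp1 was lower in SCA1+Msc than in DCs (−1.67), and none was called between the organoid groups or between the cultured SCA1+Msc groups. Over all genes tested the share called was 46.1%, 12.9% and 0.127% in these comparisons, in this order.

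A list of 10 regulators of inhibitor level held Skp2 and Cks1b, whose products mark p27 for degradation, the Polycomb genes Bmi1, Ring1, Rnf2, Cbx7, Ezh2 and Suz12, which silence the Cdkn2a locus, and Foxo1 and Foxo3. In EM organoids 7 rose and 1 fell (median 1.26 against 0.12 over all genes), among them Cks1b (1.81), Ezh2 (1.64), Skp2 (1.5) and Foxo1 (1.46). In co-cultured organoids 2 rose and 1 fell, Cks1b (1.75), Ezh2 (1.71) and Rnf2 (−0.997), and Cbx7 was lower than in EM organoids (−1.07, limma adjusted p = 0.0374). Ezh2, which rose in EM and co-cultured organoids beside Cdkn2a, fell in SCA1+Msc alone (−1.03), where 2 genes of the list rose and 4 fell, and Bmi1 rose there (1.79) and in co-culture (1.91), where 3 rose and 3 fell. As above, 44.4% and 42.3% of all genes tested were called in EM and co-cultured organoids. In SCA1+Msc alone and in co-culture it was 44.8% and 43.3%. At day 0, 2 were higher and 2 lower in SCA1+Msc than in DCs, Foxo1 (1.88) and Bmi1 (−1.42) with the largest differences. In homeostasis Foxo1 was higher than in DCs in all 3 stromal fractions (1.49, 1.12 and 2.498), and Bmi1 was lower in PDGFRα+SCA1+ (−2.16) and PDGFRα+SCA1- cells (−4.00). PDGFRα-SCA1+ cells were called in none of the 10 against PDGFRα+SCA1+ cells and in 3 against PDGFRα+SCA1- cells.

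The genes with the pattern most like a member were sought over the 12 samples of each experiment by Pearson's correlation of log2(value + 1), among 8721 genes in homeostasis and 8668 in the transwell experiment with a mean of at least 10. The points share libraries and, within a group, cell type, and the correlations are descriptions. In homeostasis Cdkn1a was most like H2-K1 (0.957), Cdkn1c like Fam20a (0.968), Cdkn2c like Chst14 (0.977) and Cdkn2d like Klhl5 (0.968), Socs3 (0.966) and Cxcl10 (0.965). In the transwell experiment Cdkn1a was most like Tmed5 (0.966), Pdlim7 (0.965) and Klf6 (0.963). Cdkn2b was most like Tmem199 (0.988), Chtf8 (0.988) and Rps27l (0.987), with 87 genes at 0.95 or more, and Ccng1 most like Apoa1bp (0.987), with 115. Cdkn2a was most like Eef2kmt (0.975), Cdkn2d like P3h1 (0.981) and Trp53 like Atad3a (0.978). For Cdkn1b and Mdm2 no gene reached 0.95 in either experiment.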

How the data were processed

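The members and the gene lists were chosen with earlier results of these data known. The authors sequenced single 50-base Smart-seq2 reads, mapped them to GRCm38 with STAR 2.5.0a, counted exons with featureCounts (1.6.0 in the submitters' processing notes) and made RPKM from counts and gene lengths; replicates were not pooled. The transwell table holds RPKM as deposited by the authors, scaled here to TPM by each column's sum. The homeostasis table, named TPM by the authors, was treated as a signal: its deposited columns sum to 847270 to 1.17351e+06 in place of 1000000, since column totals cycle down the table, by a factor of 0.722 to 1.39 of TPM. With that undone, 92.9% of 46997 low values were whole reads (at most 20 reads, within 0.02 of a read) against 12.0% as they stand. The deposited values were tested, and the totals undone as an alternative. Of the transwell values 93.1% were whole. These recovered reads gave the depths. The 4 columns of group means were not used, and 26 symbols that had become dates were not matched.

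Log2(value + 1) was fitted with limma 3.58.1 in R 4.3.3, with 1 mean per group over the 12 samples of an experiment, for genes that reached 1 in 3 or more homeostasis or 2 or more transwell samples, eBayes with trend, two-sided, and Benjamini-Hochberg adjustment over all genes tested with a threshold of 0.05. Fold changes are on this scale and understate the change of low genes. The fit was tested on simulated data. Alternatives were a pseudocount of 0.1, no filter, a minimum of 5, quantile normalization, no trend, only the groups compared, RPKM as deposited, totals undone, the replicate block and each library left out. The letters of the homeostasis samples name the mouse, so they pair samples: deviations from the group means correlated at 0.00395 to 0.0973 (18 pairs) within a mouse. Named are all members, up to 4 genes of a list and comparison with the largest called difference, and up to 3 like genes per member at 0.95 or more. Some list genes are also given in comparisons set beside these. Cdkn2a ratios used recovered reads with an exact 95% Poisson interval and a floor of 3 reads. Python 3.11.15, numpy 2.4.6, pandas 2.3.3, scipy 1.17.1 and matplotlib 3.10.9 were used, with promoters from RefSeq (GRCm38.p6) and exons from GENCODE M21.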

Additional observations from a re-analysis of the deposited data

Results flagged for a closer look

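Between day 0 and co-culture, culture itself, medium and time in culture changed as well as the partner cells. The change between day 0 and co-culture differed between ductal cells and SCA1+Msc for 2 members, by limma's test of the difference of changes. For Trp53 it was −0.96 on the log2 scale (adjusted p = 0.00511), and its call held in every alternative run. For Cdkn1a it was 0.55 (adjusted p = 0.0319), and its call was lost in several alternatives. Day 0 samples of the 2 cell types also differed in the summed hepatocyte markers, 17610 to 22120 TPM in SCA1+Msc against 4236 to 5343 in DCs, and in the immediate early genes, 37250 to 38080 against 20410 to 21810; their part in these differences was not tested.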

How the results depend on the processing

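A tally was made of 57 member results, the called ones and a few uncalled ones. Of these, 34 kept their side of the threshold under every alternative, 23 did not under at least 1, and none reversed its sign; the cause was not tested. Other uncalled results were recomputed but are outside this tally. Some of them were called under an alternative, such as Mdm2 in EM organoids with quantile normalization. With only the groups compared in the fit, the members called were 1 for PDGFRα+SCA1- cells against DCs, 2 for PDGFRα-SCA1+ against PDGFRα+SCA1- cells and 1 for the difference of co-culture changes. Without the filter they were 0 for PDGFRα-SCA1+ against PDGFRα+SCA1+ cells and 1 for the difference of changes, and without the trend 1 in each. Quantile normalization left 1 in PDGFRα-SCA1+ against PDGFRα+SCA1+ cells and 1 in co-cultured against EM organoids, and moved the median of all genes most for PDGFRα-SCA1+ against PDGFRα+SCA1- cells, from 0.41 to 0.05. On the RPKM as deposited 4 were called for the difference of changes.

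With 1 library left out, the members called ranged from 2 to 3 for PDGFRα+SCA1+, 1 to 2 for PDGFRα+SCA1- and 2 to 4 for PDGFRα-SCA1+ cells against DCs, 0 to 1 between the PDGFRα+ fractions, and 0 to 2 and 2 to 5 for PDGFRα-SCA1+ against PDGFRα+SCA1+ and PDGFRα+SCA1- cells. They ranged from 6 to 7 for each organoid group, 1 to 2 between organoids, 5 to 6 for SCA1+Msc alone, where 9 were called with all libraries, 4 to 7 for co-cultured SCA1+Msc, 4 to 6 between cell types at day 0 and 1 to 3 for the difference of changes. A group left with 1 sample was assumed to vary like the others. The share of all genes called under each of these settings is not given here. The counts for left-out libraries and other settings are therefore not results about the members against other genes.

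Transwell replicate numbers are shared, but whether they pair the samples was not settled. Deviations of same-numbered samples correlated at −0.0188 to 0.0295 (30 pairs). Both replicates of any 2 groups gave the same value, so these pairs are not independent. The check cannot decide on pairing, because homeostasis samples from the same mouse also correlated at only 0.00395 to 0.0973. With the replicate block, 7 members were called in each organoid group against DCs and 9 and 6 in SCA1+Msc alone and co-cultured, and over all genes 5 between the cultured SCA1+Msc groups in place of 23. No call among the 57 results changed under the block in either experiment. Depth limits Cdkn2a at day 0, which had at most 2 reads a library.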
